A study of Mus musculus with 6 samples.

Results

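The early response genes examined here were Egr1, Egr2, Egr3, Klf2, Klf4, Klf6, Nr4a1, Nr4a2, Nr4a3 and Btg2, measured in mouse ovaries with and without the receptor for follicle-stimulating hormone. They were taken by symbol: every probe set was used whose platform annotation gives exactly 1 gene symbol equal to one of the 10 names, which gave 25 of the 45101 probe sets and 10 of the 18194 gene symbols on the array. FORKO ovaries came from 8-month-old female mice in which all variants of the follicle-stimulating hormone receptor had been deleted, and WT ovaries from 8-month-old wild-type females; both genotypes descended from heterozygote matings on the 129T2 svEmsJ background. Each group had 3 biological replicates, both ovaries were pooled for RNA, and each sample had its own Affymetrix Mouse Genome 430 2.0 array. The labels do not say how many mice one RNA sample represents, and p-values here rest only on how these 3 samples a group vary. The descriptive text of the FORKO samples speaks of wild-type mice, against their titles and genotype field.

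Immediate early genes are transcribed within minutes of a signal without new protein synthesis, mainly through serum response factor bound with its ETS partners and through CREB, the factor that cyclic AMP activates. EGR proteins are zinc-finger activators, KLF proteins are zinc-finger factors that bind CACCC and GC boxes, NR4A proteins are orphan nuclear receptors whose activity follows their abundance, and BTG2 is an antiproliferative protein that recruits the CCR4-NOT deadenylase to messages. In rodent ovaries Egr1 and Nr4a1 are known for a short rise in follicles after the surge of luteinising hormone. KLF2 and KLF4 are best known from endothelial cells under flow, where they hold the endothelium quiescent.

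Signals are given after scaling of every array to the same trimmed mean, and a log2 change stands for the FORKO mean minus the WT mean of log2(signal + 5.73), a scale that shrinks changes at low signal. The deposited MAS5 signals had medians of 17.7 to 23.5 per array, and precision is limited by there being 3 arrays a group. Fshr itself read 1.20, 11.2 and 11.7 in FORKO replicates 1, 2 and 3, against 99.6, 59.4 and 119 in WT, so that no FORKO array reached a WT array. FORKO replicate 1 stood apart: its log2 signals correlated at 0.934 and 0.936 with the other FORKO arrays, which correlated at 0.976 with each other, and results are therefore also given without it. A probe set was tested where its mean signal over the 6 arrays reached 20.4, the median of all such means, which 17 of the 25 member probe sets did. At least 1 probe set of each of the 10 genes was tested.

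Klf4 and Btg2 rose in FORKO ovaries, and no member fell. These 2 probe sets were the members past an adjusted p of 0.05 in limma's moderated test of FORKO against WT, a share to be read against the 1.06% of all 22506 tested probe sets that were called higher in FORKO. Klf2, Klf6 and Nr4a3 also had a leading probe set (the one with the highest mean) whose 3 FORKO arrays lay above all 3 WT arrays, without passing the test. Egr3 and Nr4a1 were high in FORKO replicates 2 and 3 but at WT levels in replicate 1. Egr1, Egr2 and Nr4a2 had leading probe sets whose groups overlapped.

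**Figure D1:**
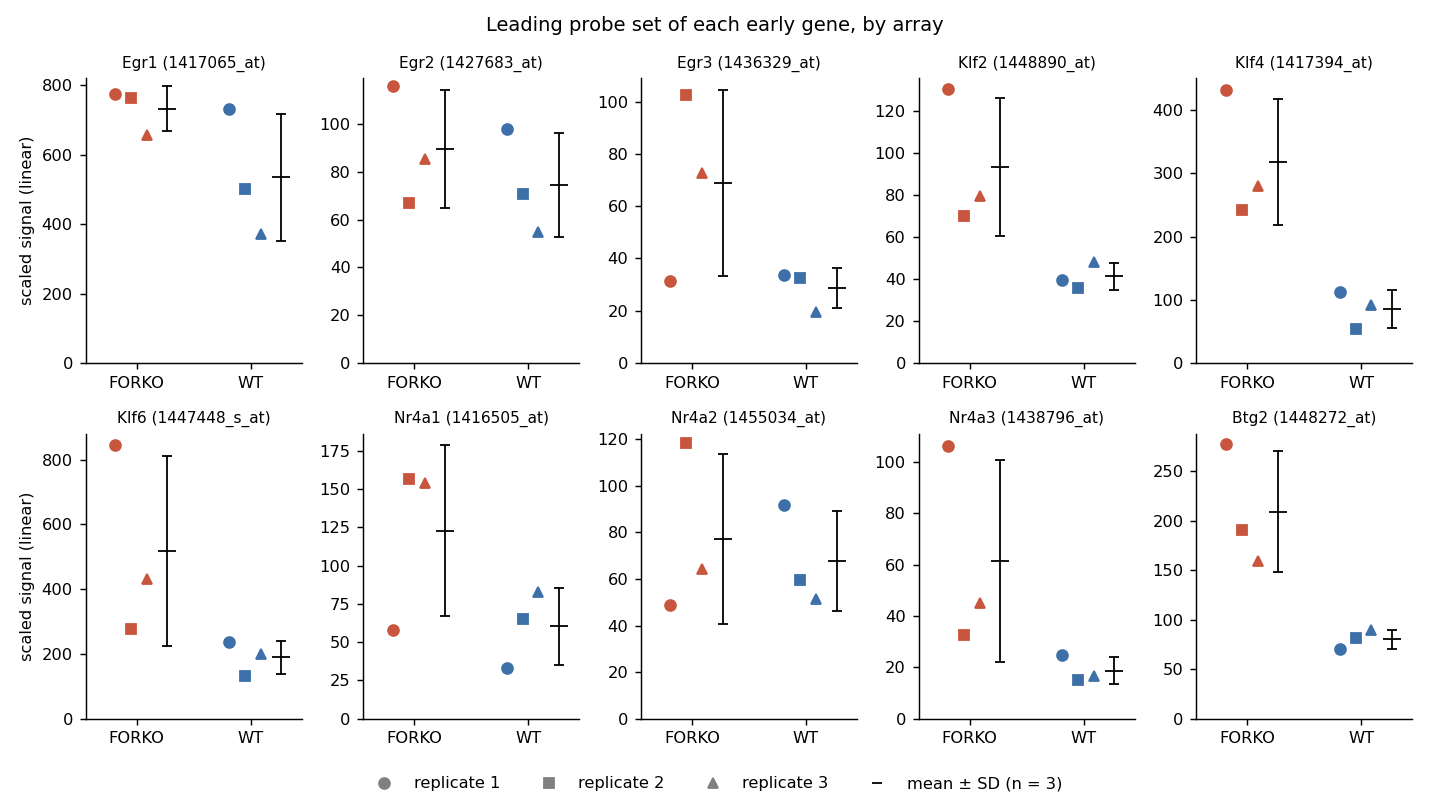
Scaled signal (linear axis from 0) of the leading probe set of each gene on every array, FORKO left and WT right, with symbols for replicate numbers and the mean ± SD (n = 3) beside the points. Klf4 and Btg2 show FORKO arrays clear of WT (242 to 431 against 53.2 to 112 for Klf4), while Egr3 and Nr4a1 have FORKO replicate 1 among the WT arrays.

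Among the KLF factors, Klf4, which drives terminal differentiation of epithelia and is one of the pluripotency reprogramming factors, had the largest change of all members. Its probe set 1417394_at read 431, 242 and 280.1 in FORKO replicates 1, 2 and 3, against 112, 53.2 and 91.0 in WT replicates 1, 2 and 3. No array of either genotype entered the range of the other, and group means were 318 ± 99.8 in FORKO and 85.5 ± 29.9 in WT (SD, n = 3 each). On the log2 scale Klf4 rose by 1.84 ± 0.29 (SE; limma adjusted p = 0.0169), a fold of 3.58 on the scale with the pseudocount. In a two-sided exact permutation of the array labels p was 0.1, which is as low as groups of 3 allow. The call was lost without FORKO replicate 3 (limma adjusted p = 0.0525), without WT replicate 2 (0.0691) and without WT replicate 3 (0.0678), with log2 changes of 1.91, 1.56 and 1.91 in these fits. The other Klf4 probe set, 1417395_at, was designed on the same sequence record. It read 28.9, 33.7 and 27.5 in FORKO, against 15.0, 2.81 and 23.4 in WT. It is dim, and it reached the filter only through its FORKO signals, so that its positive direction was partly fixed by that filter (log2 change 1.04 ± 0.42, SE; limma adjusted p = 0.281).

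Klf2, the flow-induced endothelial factor that also keeps T cells quiescent, read 131, 70.0 and 79.7 in FORKO replicates 1, 2 and 3, against 39.8, 35.7 and 48.4 in WT. Groups did not overlap, but FORKO replicate 1 was far above the other FORKO arrays. Klf2 did not pass, at a log2 change of 1.04 ± 0.25 (SE; limma adjusted p = 0.0815). It was 0.78 without FORKO replicate 1 (limma adjusted p = 0.0811).

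Klf6, a broadly expressed factor, has 5 probe sets, of which 4 were tested. The brightest, 1447448_s_at, read 844, 277 and 429.7 in FORKO replicates 1, 2 and 3, against 235, 133 and 199 in WT. Probe set 1433508_at gave the same ranking, with 619, 234 and 294 in FORKO, against 213, 136 and 182 in WT. In each of the 4, every FORKO array was above every WT array, and FORKO replicate 1 was the highest. Log2 changes were 1.31, 0.98, 0.83 and 0.76 from the brightest to the dimmest, with limma adjusted p values of 0.123 to 0.277, none past the threshold. With the replicate number as a block, a pairing read from these data and not from a label, 1447448_s_at and 1433508_at passed (limma adjusted p = 0.0168 and 0.0405). Without FORKO replicate 1 the changes of these probe sets were 0.89 and 0.58, neither past the test (limma adjusted p = 0.0798 and 0.2001), and 1447448_s_at passed without FORKO replicate 2 (0.0459). Names ending in s_at or x_at mark probe sets that can match more than 1 transcript, and 1447448_s_at and 1459718_x_at were designed on the same sequence record, so these are not independent measures. The fifth, 1418280_at, was below the filter at 25.03, 10.4 and 16.8 in FORKO, against 14.7, 16.2 and 16.9 in WT.

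Btg2, the antiproliferative gene first found as an early response to growth factors and a target of p53, rose. Probe set 1448272_at read 277, 191 and 159.8 in FORKO replicates 1, 2 and 3, against 69.9, 81.1 and 89.2 in WT. The WT arrays were tightly grouped and all below the lowest FORKO array (209 ± 60.9 in FORKO and 80.1 ± 9.65 in WT; SD, n = 3 each). This was a log2 change of 1.29 ± 0.22 (SE; limma adjusted p = 0.0244, exact permutation p = 0.1). Without FORKO replicate 1 it was 1.08 and still passed (limma adjusted p = 0.00879). Without WT replicate 1, 2 or 3 the call was lost (limma adjusted p = 0.103, 0.106 and 0.0790), at log2 changes of 1.21, 1.31 and 1.37. The second Btg2 probe set, 1416250_at, was designed on the same sequence record and is not an independent measure. It read 198, 148 and 166 in FORKO, against 94.3, 88.3 and 94.1 in WT, again with no overlap. Its log2 change of 0.84 ± 0.18 (SE) lay just outside the threshold (limma adjusted p = 0.0502) and passed with the replicate block (0.0346).

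Promoter sequences of RefSeq on GRCm38.p6, from 250 bases before to 50 bases after an annotated start, were available for 8 of the 10 genes, in 12 entries; Egr1 and Egr3 had none. They are shown for Btg2 and Klf4 because these genes passed the test, for Nr4a1 because it passed without FORKO replicate 1, and for Egr2 (the third of its 5 annotated starts) because it holds the serum response motif. Each is written 5′ to 3′ on the strand of its gene, and capitals mark the full cyclic AMP response element (CRE, TGACGTCA), its core TGACG on either strand (CGTCA on the opposite one), and the CArG box to which serum response factor binds.
Btg2, chr1:134079106-134079405, minus strand: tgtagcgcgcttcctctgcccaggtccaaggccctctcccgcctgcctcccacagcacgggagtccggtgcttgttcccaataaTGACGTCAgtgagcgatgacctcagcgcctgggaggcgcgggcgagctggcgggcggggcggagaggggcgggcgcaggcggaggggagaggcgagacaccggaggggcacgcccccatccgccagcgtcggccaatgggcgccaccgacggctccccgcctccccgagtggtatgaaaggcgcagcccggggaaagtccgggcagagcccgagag
Klf4, chr4:55532426-55532725, minus strand: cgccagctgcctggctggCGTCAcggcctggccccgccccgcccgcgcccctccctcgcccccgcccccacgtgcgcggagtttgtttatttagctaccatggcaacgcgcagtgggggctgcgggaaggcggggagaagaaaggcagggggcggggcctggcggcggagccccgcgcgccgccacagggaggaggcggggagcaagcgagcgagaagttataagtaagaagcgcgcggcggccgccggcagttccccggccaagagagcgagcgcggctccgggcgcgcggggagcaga
Nr4a1, chr15:101266596-101266895, plus strand: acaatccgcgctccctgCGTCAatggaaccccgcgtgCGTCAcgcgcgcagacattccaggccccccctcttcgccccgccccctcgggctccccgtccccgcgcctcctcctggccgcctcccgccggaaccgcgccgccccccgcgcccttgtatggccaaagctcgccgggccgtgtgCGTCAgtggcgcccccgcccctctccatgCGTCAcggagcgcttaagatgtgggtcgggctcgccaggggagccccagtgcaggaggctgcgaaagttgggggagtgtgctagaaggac
Egr2, chr10:67537619-67537918, plus strand: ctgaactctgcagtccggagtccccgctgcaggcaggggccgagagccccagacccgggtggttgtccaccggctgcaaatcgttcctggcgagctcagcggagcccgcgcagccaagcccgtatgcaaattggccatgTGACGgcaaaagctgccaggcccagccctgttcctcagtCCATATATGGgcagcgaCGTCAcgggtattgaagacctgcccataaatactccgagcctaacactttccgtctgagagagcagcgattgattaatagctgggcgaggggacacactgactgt

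Btg2 was the member with a full CRE, from base -166 to base -159 counted from the annotated start, a motif found in 1.79% of all 32851 promoter entries. The core TGACG, on either strand and counted also inside the full site, was present in 7 of the 8 genes, against 20.8% of all promoter entries. Nr4a1, Nr4a2 and Nr4a3 each held 4 matches to the core, those of Nr4a1 starting at bases -233, -213, -69 and -40. Klf4 held 1, starting at base -232, and Klf2 held 1, starting at base -241. The CArG box was found in Egr2 alone among the 8 (1.63% of all entries), at bases -72 to -63 of the entry shown. The GC box GGGCGG, searched on both strands, was present in all 8 genes in at least 1 entry, against 35.7% of all entries, and the KLF motif CACCC in 4, against 57.5%. The EGR motif GCGTGGGCG and the NR4A motif AAAGGTCA had no match in these windows (0.612% and 1.51% of all entries). A gene was counted if any of its entries held the motif, and Egr2 has several entries. The shares are of single entries, so gene counts and shares are in unlike units. These matches describe letters in a short window and were not tested against the array values.

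Of the EGR factors, Egr1, which mice need in the pituitary to make luteinising hormone, did not pass. Its single probe set 1417065_at read 775, 764 and 657 in FORKO replicates 1, 2 and 3, against 731, 500.2 and 370.3 in WT. WT replicate 1 lay within the range of the FORKO arrays, which were close together (732 ± 65.0 in FORKO and 534 ± 183 in WT; SD, n = 3 each). Its log2 change was 0.50 ± 0.23 (SE; limma adjusted p = 0.357, exact permutation p = 0.2).

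Egr2, the Krox20 factor of myelinating Schwann cells and hindbrain, has 2 tested probe sets that did not give one picture. Probe set 1427683_at read 116, 67.2 and 85.2 in FORKO, against 98.2, 70.6 and 55.1 in WT, with groups that overlapped (log2 change 0.25 ± 0.26, SE; limma adjusted p = 0.729). Probe set 1427682_a_at read 75.5, 47.4 and 70.9 in FORKO, against 43.3, 22.7 and 33.7 in WT, with no overlap (log2 change 0.86 ± 0.26, SE; limma adjusted p = 0.161). Both were designed on the same sequence record.

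Egr3, known for muscle spindle development and T cell tolerance, read 31.5, 103 and 72.7 on probe set 1436329_at in FORKO replicates 1, 2 and 3, against 33.8, 32.5 and 19.7 in WT. Replicates 2 and 3 were above every WT array and replicate 1 was not. Over all 6 arrays the change was 1.01 ± 0.37 (log2, SE; limma adjusted p = 0.243). Without FORKO replicate 1 it was 1.45 and passed (limma adjusted p = 0.00805). The other Egr3 probe set, 1421486_at, was below the filter and ran differently, with 26.6, 3.74 and 4.96 in FORKO replicates 1, 2 and 3, against 3.84, 12.2 and 22.7 in WT.

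**Figure D2:**
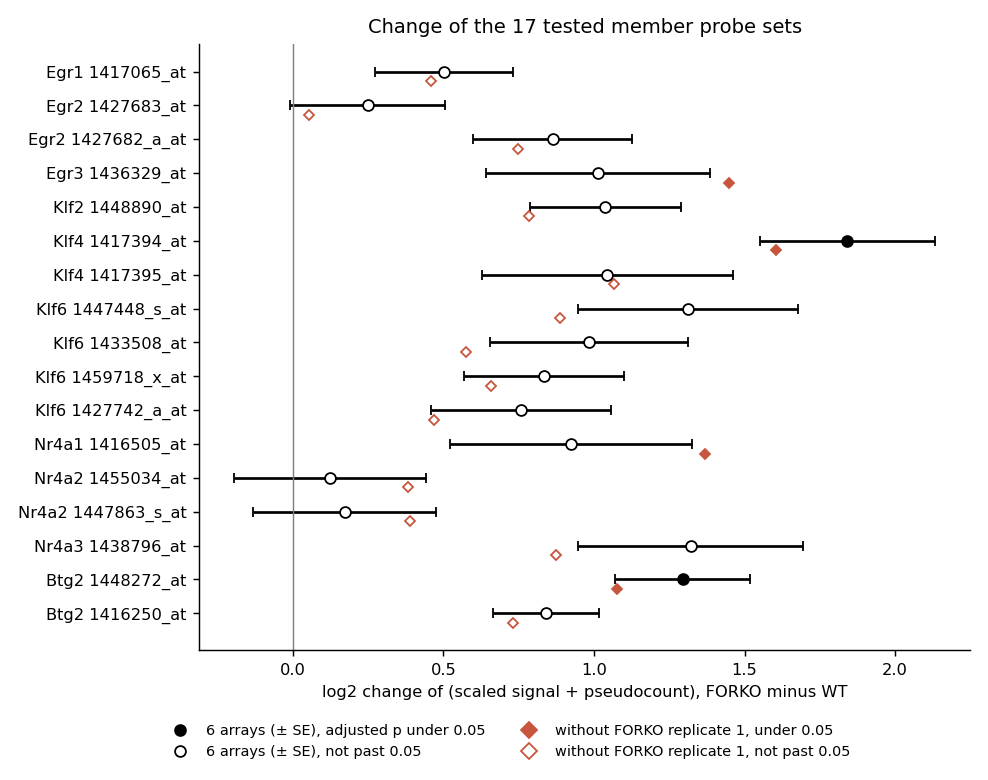
Log2 change (FORKO minus WT, horizontal axis) of the 17 tested probe sets with its SE (circles), and the change without FORKO replicate 1 (diamonds); filled symbols passed an adjusted p of 0.05. Klf4 (1.84) and Btg2 (1.29) passed with and without that array, and Egr3 (1.45) and Nr4a1 (1.37) passed without it but not with it, in fits with no replicate block.

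Among the NR4A receptors, Nr4a1 (Nur77) shared with Egr3 a FORKO replicate 1 at WT levels, while their WT arrays ran in different orders. Nr4a1 read 58.1, 156 and 154 in FORKO replicates 1, 2 and 3, against 33.0, 64.8 and 82.8 in WT. FORKO replicate 1 lay between WT arrays, and the other FORKO arrays were above all of WT. Over all 6 arrays the change was 0.92 ± 0.40 (log2, SE; limma adjusted p = 0.327, exact permutation p = 0.3). It passed with the replicate block (limma adjusted p = 0.0386) but not with the block and no dim filter (0.0564), and it passed at 1.37 without FORKO replicate 1 (0.0204).

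Nr4a2 (Nurr1), needed for midbrain dopamine neurons, has 6 probe sets, of which 2 were tested. Probe set 1455034_at read 48.6, 118 and 64.2 in FORKO, against 91.9, 59.5 and 51.6 in WT, and 1447863_s_at read 26.2, 43.6 and 45.6 in FORKO, against 42.9, 19.99 and 39.6 in WT. Groups overlapped on both, and in both the lowest FORKO array was replicate 1. The log2 changes were 0.12 ± 0.32 and 0.17 ± 0.30 (SE; limma adjusted p = 0.905 and 0.853). The other 4 probe sets were below the filter, with group means of 3.54 to 18.3 in FORKO and 4.47 to 10.6 in WT.

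Nr4a3 (Nor1), whose loss together with that of Nr4a1 causes leukaemia in mice, read 106, 32.7 and 45.0 on probe set 1438796_at in FORKO replicates 1, 2 and 3, against 24.6, 15.0 and 16.6 in WT. All FORKO arrays were above all WT arrays, and replicate 1 was more than the sum of the others. The probe set reached the filter only through its FORKO signals. Nr4a3 did not pass at a log2 change of 1.32 ± 0.37 (SE; limma adjusted p = 0.1297), and its block value below the threshold (0.0421) was not kept once the dim filter was dropped (0.0777). Without FORKO replicate 1 it was 0.87 (limma adjusted p = 0.133). The other Nr4a3 probe sets were near the floor of the array: 1421079_at read 4.15, 7.84 and 2.96 in FORKO, against 2.08, 1.25 and 0.537 in WT, and 1421080_at read 2.73, 4.28 and 2.01, against 5.40, 3.85 and 2.95.

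Because a probe set can reach the filter through its higher group alone, all 25 member probe sets were also counted in the fit of all 45037 non-control probe sets with no filter. There 21 members had a positive change and 4 a negative one, with a median of 0.83, while 51.3% of all probe sets were positive, with a median of 0.01. Every FORKO array lay above every WT array for 12 members from 6 genes, against 8.4% of all probe sets, and the reverse held for 0 members, against 7.7% of all. Those 6 genes were Egr2, Klf2, Klf4, Klf6, Nr4a3 and Btg2. The leading probe sets of Klf4 and Btg2 were the 2 members called in that fit, in which 0.313% of all probe sets were called higher. Probe sets of one gene are not independent, and 5 of the 25 are those of Klf6.

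The number of member calls depended on how the arrays were handled. The replicate block was taken up because of these same arrays, so calls made only with it are no independent support. With the replicate number as a block, 7 member probe sets from 5 genes passed, all higher in FORKO, where 1.92% of all tested probe sets were called higher; they were both of Btg2, 1 of Klf4, 2 of Klf6, Nr4a1 and Nr4a3, the last of which was in the test only through its FORKO signals. With the block and no dim filter, 5 of the 25 passed, those of Btg2, Klf4 and Klf6, where 0.755% of all were called higher. Without FORKO replicate 1, 4 passed, namely Klf4, Btg2, Egr3 and Nr4a1, where 2.65% of all were called higher. Scaling by the bacterial spikes moved the median of all tested probe sets to 0.17, and the median of the 17 tested members was then 1.10, against 0.92 in the fit reported here, where the median of all was -0.01. All 17 had a positive change under trimmed-mean, quantile, median and spike scaling and with the deposited values. These scalings rework the same arrays, and 2 of the 17 reached the filter only through their FORKO signals. With no dim filter, 4 of the 25 members had a negative change.

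**Figure D3:**
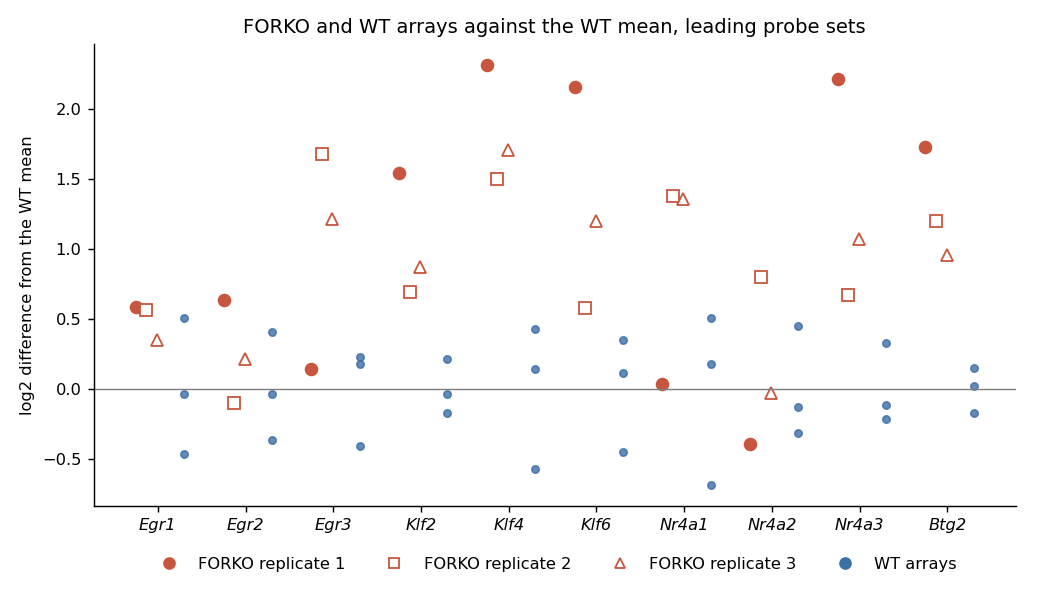
Log2 difference of each array from the WT mean (vertical axis) for the leading probe set of each gene; FORKO replicates have red symbols, with replicate 1 filled, and WT arrays are blue dots. FORKO replicate 1 is the highest array for Klf2, Klf4, Klf6, Nr4a3 and Btg2, and lies among the WT arrays for Egr3 and Nr4a1.

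The order of the arrays differed among the members. FORKO replicate 1 was the highest of all 6 arrays for 7 of the 10 leading probe sets (Egr1, Egr2, Klf2, Klf4, Klf6, Nr4a3 and Btg2), and FORKO replicate 2 for the other 3 (Egr3, Nr4a1 and Nr4a2). The median log2 difference from the WT mean over the 17 tested probe sets was 1.10, 0.66 and 0.87 in FORKO replicates 1, 2 and 3, against 0.33, -0.13 and 0.05 in WT replicates 1, 2 and 3. Over all tested probe sets the same medians were -0.04, 0.02 and 0.01 in FORKO. Pearson correlations over the 6 arrays were 0.85 to 0.98 among Klf2, Klf4, Klf6, Nr4a3 and Btg2. Nr4a2 correlated at -0.23 to 0.04 with those 5 members. Egr3 correlated at 0.71 with Nr4a1 and at 0.70 with Nr4a2. These coefficients describe 2 groups of 3 arrays and carry no test.

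Related genes were taken as lists and read by 1 leading probe set per gene, where 1.3% of 11198 tested genes were called higher and 0.839% lower, with a median log2 change of -0.02; 16.8% of these genes had an unadjusted p under 0.05. Of 15 tested further members of the EGR, KLF and BTG/TOB families, 0 passed limma's test (4 at an unadjusted p under 0.05; median 0.15, 9 positive), so the calls in these families were those of Klf4 and Btg2. The largest changes there were negative: Btg4, an oocyte gene, read 64.0 ± 19.2 in FORKO and 151 ± 33.0 in WT (SD, n = 3 each; log2 change -1.18, limma adjusted p = 0.0513), and it passed without FORKO replicate 1 (limma adjusted p = 0.0299). Klf17, a germ-cell KLF factor, read 18.4 ± 8.32 in FORKO and 32.5 ± 8.54 in WT (limma adjusted p = 0.355). Of 15 tested regulators of early gene induction and EGR corepressors, 0 passed (1 at an unadjusted p under 0.05; median 0.11, 11 positive). The largest changes were those of the CREB coactivator Crtc2 (0.50, limma adjusted p = 0.459) and the serum response factor partner Mrtfb (0.45, 0.303).

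Other immediate early genes included further calls. Of 46 on the array, 37 were tested, of which 5 rose, 1 fell and 31 did not pass; 30 of the 37 changes were positive, with a median of 0.35. Dusp4, a phosphatase that inactivates ERK, read 169, 78.8 and 95.2 in FORKO replicates 1, 2 and 3, against 23.7, 15.1 and 17.8 in WT (log2 change 2.23, limma adjusted p = 0.00907). Fos, the AP-1 subunit, read 359, 517 and 568 in FORKO, against 223, 95.5 and 118 in WT (1.75, limma adjusted p = 0.0234), and here FORKO replicate 1 was the lowest of its group. Ccn2, a matricellular protein, read 1494, 1239.9 and 1096 in FORKO, against 552, 379 and 308 in WT (1.65, limma adjusted p = 0.0102). Errfi1, a feedback inhibitor of the EGF receptor, read 1845, 1050.0 and 1162 in FORKO, against 589, 516 and 458 in WT (1.33, limma adjusted p = 0.0196). The fifth rise was that of Ccn1 (1.33, limma adjusted p = 0.0194), and the fall was that of the AP-1 gene Fosl2 (-1.11, limma adjusted p = 0.0132); both were named once their values were known, to complete the count. With the replicate block 10 of the 37 passed, the added ones being Dusp6 (1.10, limma adjusted p = 0.0220), Cebpd (1.53, 0.0132) and Atf3 (1.09, 0.0400), higher in FORKO, and Cebpb (-1.04, 0.0385), lower. Without FORKO replicate 1, 7 passed. Both settings also called more of all 22506 tested probe sets. These calls were 691 with the block and 864 without FORKO replicate 1, against 372 in the main fit. The gains among the early genes are to be read beside these counts.

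**Figure D4:**
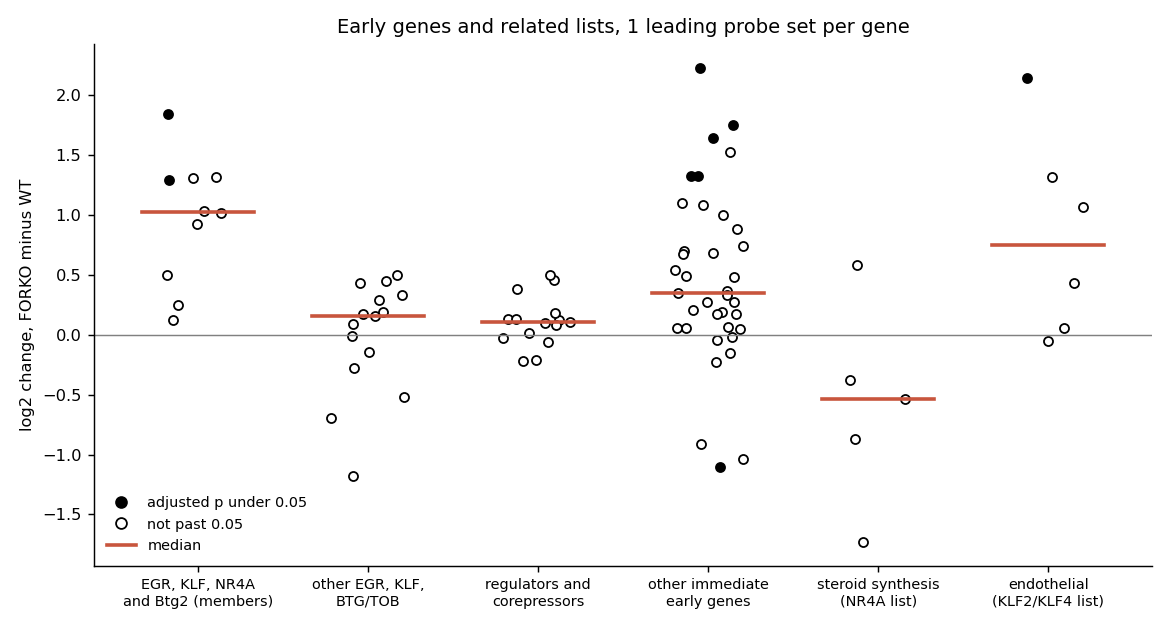
Log2 change (FORKO minus WT, vertical axis) of the members' leading probe sets and of each tested gene of the related lists; filled points passed an adjusted p of 0.05 and red bars are medians. The other immediate early genes spread from -1.11 to 2.23 around a median of 0.35, whereas regulators lie near 0 (median 0.11).

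Genes described as targets of these factors were read in the same way. Of 5 tested steroid synthesis genes described as NR4A targets in rodent gonads, 0 passed (3 at an unadjusted p under 0.05) and 1 was positive (median -0.54). Star, the mitochondrial cholesterol carrier, read 543, 804 and 682 in FORKO, against 742, 1977 and 1263 in WT (-0.87, limma adjusted p = 0.227), and it passed with the replicate block (0.0418). Akr1c18, which inactivates progesterone, read 0.656, 86.3 and 80.6 in FORKO, against 103, 103 and 151 in WT (limma adjusted p = 0.385). Of 6 tested endothelial genes described as KLF2 and KLF4 targets, 1 rose and 5 did not pass (median 0.75, 5 positive), of which Vwf, the clotting factor carrier, passed with the replicate block (1.07, limma adjusted p = 0.0317). The riser was Vcam1, the adhesion molecule for leukocytes, at 1364, 1198 and 1195 in FORKO, against 380.1, 195 and 290.0 in WT (2.14, limma adjusted p = 0.00358). This endothelial list was not split by whether the factors raise or lower a gene. Its median, its positive count and the rise of Vcam1 therefore do not measure target activity.

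Markers of other cell types were read beside the members. In bulk tissue, fewer cells of a type and less RNA per cell cannot be told apart. Summed signals of 8 macrophage markers were 4381, 2025 and 2537 in FORKO replicates 1, 2 and 3, against 2082 to 2276 in WT; 7 were tested, 7 had a positive change and 0 passed limma's test (2 at an unadjusted p under 0.05), while Cd14 passed with the replicate block (limma adjusted p = 0.0298). Summed signals of 5 lymphocyte markers were 1253, 327 and 501 in FORKO replicates 1, 2 and 3, against 284 to 381 in WT, and 0 of 2 tested passed (0 at an unadjusted p under 0.05). Most of that sum was Ptprc, a gene of all leukocytes, at 1165, 285 and 432 in FORKO, against 310, 267 and 250.3 in WT, while Cd3e and Cd79a read at most 18.4 on any array. The macrophage sum and Ptprc were highest on FORKO replicate 1, the array that was also highest for Klf2, Klf4, Klf6, Nr4a3 and Btg2. On FORKO replicate 2, however, the macrophage sum was below every WT array. The surface epithelium sum, given below, was likewise highest on FORKO replicate 1, and all its FORKO arrays were above WT. The part of those cell types in the member values was not tested. Without FORKO replicate 1 the log2 changes of these 5 genes, in that order, were 0.78, 1.60, 0.89, 0.87 and 1.08. In the same fit the median change was 0.05 for tested macrophage markers and 0.65 for surface epithelium markers, and Ptprc changed by 0.35. Leaving out 1 array is no test of cell content. The 8 endothelial markers summed to 728, 803 and 763 in FORKO, against 626 to 691 in WT, and 0 of 6 tested passed (0 at an unadjusted p under 0.05; median 0.10). The 7 granulosa markers summed to 5935, 14539.5 and 15357 in FORKO replicates 1, 2 and 3, against 11254 to 14892 in WT, and 0 of 6 tested passed (2 at an unadjusted p under 0.05), while Amhr2 passed with the replicate block (higher in FORKO, limma adjusted p = 0.0346). Inha, Inhba, Fst and Hsd17b1 made the low sum (Inhba at 54.2 on FORKO replicate 1), whereas Foxl2 read 849, 872 and 819 in FORKO, against 626 to 810 in WT, and Amhr2 read 2841, 2128 and 2941 in FORKO, against 1550 to 1745 in WT. The array with the low sum is the one on which Egr3 and Nr4a1 were at WT levels, and the part of that in their values was not tested. The 6 surface epithelium markers summed to 1868, 1173 and 1267 in FORKO, against 639 to 697 in WT, and 2 of 6 rose. The 8 oocyte markers summed to 253, 398 and 426 in FORKO, against 729 to 912 in WT, with 2 of 5 tested lower; the 4 theca markers summed to 5662 to 5900.4 in FORKO, against 7097 to 7782 in WT, with 0 of 4 called by limma (2 at an unadjusted p under 0.05; Star passed with the replicate block); and the 6 smooth muscle markers summed to 1197, 2534 and 2732 in FORKO, against 2295 to 2705 in WT, with 1 of 5 lower and Tagln also lower with the replicate block (limma adjusted p = 0.0361). Cyp11a1 was the largest part of the theca sum on every array (mean 3009 in FORKO and 4358 in WT). Cyp17a1 had the 1 positive change among the 4 (0.58, limma adjusted p = 0.805). It read 2477, 307 and 556 in FORKO, against 1187, 173 and 604 in WT, and its change was -0.27 without FORKO replicate 1. No marker of the cell type lists was at 0 on any array.

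The genes most like each member over the 6 arrays were found by Pearson correlation of log2 signals across 10840 other named genes. For Btg2 these were Etv5, an ETS factor induced by ERK signalling, Pdp1, a mitochondrial phosphatase, and the chemokine gene Ccl27a (0.992 to 0.998). Etv5 read 141, 91.7 and 79.2 in FORKO, against 32.0, 34.7 and 38.9 in WT, and rose (log2 change 1.39, limma adjusted p = 0.0217), as did Pdp1 (1.17, 0.0361). For Klf4 they were Cdkl2, the fructose kinase gene Khk, and Ap3m2, none past the test. For Klf2 they were the complement inhibitor gene Serping1, the sulfotransferase gene Sult1a1, which rose (1.54, limma adjusted p = 0.0397), and Atp9a. For Klf6 they were Serpina5, Ptprk and the cytokine gene Il1b, and for Nr4a3 Chdh, the granzyme gene Gzma, and Tspan1. For Nr4a1 they were Klhl25, Tmem9b and Usp16, and for Egr3 the cell adhesion gene Cdh2 (N-cadherin), Alox12 and Ct55. Cdh2 read 361, 829 and 653 in FORKO, against 391, 347 and 268 in WT, with FORKO replicate 1 among the WT arrays as for Egr3. For Egr1 they were Gga2, Hcst and Cyb5r3, for Egr2 Iqcb1, Tut1 and Cldn12, and for Nr4a2 Gba2, Usp24 and Elac2 (0.969 to 0.977). Between 28 genes (Nr4a2) and 487 genes (Nr4a3) correlated above 0.9 with a member, so that the nearest genes are a few among many on 6 arrays.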

How the data were processed

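Ovary RNA of 3 FORKO and 3 WT samples was measured on Affymetrix Mouse Genome 430 2.0 arrays. The authors deposited linear intensities, 1 per probe set, which MAS5 produced per the submitters' processing notes; no label states its target value or gives its detection calls. Groups and replicate numbers came from the sample titles. Each array was multiplied by a factor (0.895 to 1.09) that gave all the same mean with 2% trimmed at either end, log2(signal + 5.73) was taken, 5.73 being the pooled 25th percentile, and the 64 control probe sets were left out. The 22506 probe sets with a mean signal of 20.4 or more went into limma's moderated test (version 3.58.1, R 4.3.3: lmFit, then eBayes with its trend option; two-sided), with p-values adjusted by Benjamini-Hochberg over all of them and a threshold of 0.05. The script was tested on simulated data. Exact permutation tests used scipy 1.17.1 and figures matplotlib 3.10.9.

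FORKO and WT arrays with the same number deviated together from their groups (r = 0.195, 0.134 and 0.358, all above 0.1). The numbers were therefore treated as pairs in an alternative fit, on the strength of the data since no label says so. The main fit and the exact permutation tests were not paired. Values with this replicate block are given where they change a call of a member or of a listed gene.

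Gene symbols came from the platform annotation (34958 probe sets with 1 symbol, 932 with several, 9211 with none listed), matched by Entrez identifier to GRCm38.p6 for 34754, and promoters from RefSeq. The members, lists and tests were chosen with earlier results of these data known. The genes named are the members, up to 4 called genes of each list with the largest change (or the largest 2 where none passed), and the 3 genes most like each member, plus genes whose call the block changed and markers that set a sum, named after their values were seen; the probe set with the highest mean stood for a gene. Some list genes had no probe set with a single symbol and were not analysed here. Alternatives covered scaling, pseudocount (1 and 16), dim filter, variance model, the replicate block and each array left out; the block with no dim filter was added after the data were seen.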

Additional observations from a re-analysis of the deposited data

How the results depend on the processing

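Over 279 refits of the 17 tested member probe sets, 255 kept their direction and their side of the threshold, 15 passed in place of not passing, 6 no longer passed and 3 changed sign. The sign changes were those of Nr4a2: with 1 array left out, 1455034_at ranged from -0.21 (without FORKO replicate 2) to 0.38 and was -0.04 without WT replicate 3, and 1447863_s_at ranged from -0.12 (without WT replicate 2) to 0.39; the cause was not tested. The number of member probe sets past the test was 2 with quantile scaling, deposited values, median scaling, either pseudocount, no dim filter, no intensity trend and the stricter filter, which left 7 of the 17. It was 6 with spike scaling, 7 with the replicate block, 5 with the replicate block and no dim filter (chosen after seeing the data) and 0 to 4 with 1 array left out (0 without WT replicate 2 or 3, 1 without WT replicate 1 or FORKO replicate 3, 4 without FORKO replicate 1). Where limma called 0, 10 and 11 of the 17 had an unadjusted limma p under 0.05 (without WT replicate 2 and 3). The shares of all probe sets in those fits, which had fewer arrays, were 10.04% and 12.9%. With all 6 arrays the count was 13 of 17, against 14.6% of all. Of the 17, 2 reached the filter only through their FORKO signals, and probe sets of one gene are not independent. With spike scaling, Klf2, Klf6 (1447448_s_at), Nr4a3 and the second Btg2 probe set passed at limma adjusted p values of 0.0272, 0.0395, 0.0497 and 0.0171. Of all probe sets, 372 passed, against 647 with spike scaling, 221 with no dim filter, 191 with the stricter filter, 691 with the replicate block and 62 to 864 with 1 array left out. Higher calls were 64.0% of these 372, against 50.6% with median scaling and 86.6% with spike scaling.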

Other observations

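Some early genes were too dim on average for the filter and therefore had no test in the report; the following were chosen after their values were seen. Ptgs2, which encodes the inducible cyclooxygenase of ovulating follicles, read 27.5, 22.4 and 18.8 in FORKO replicates 1, 2 and 3, against 2.39, 2.91 and 6.98 in WT, with no overlap; with no dim filter its log2 change was 1.56 (limma adjusted p = 0.0748). Fosb, an AP-1 subunit, read 15.5, 10.6 and 8.55 in FORKO, against 3.42, 4.27 and 4.66 in WT (0.79, limma adjusted p = 0.339). Plk3, a stress-responsive kinase, read 22.4, 17.2 and 18.9 in FORKO, against 2.39, 11.04 and 11.7 in WT (0.91, limma adjusted p = 0.390). Egr4, the remaining EGR factor, read 9.07, 19.3 and 17.7 in FORKO, against 11.3, 2.19 and 2.86 in WT (0.97, limma adjusted p = 0.390), with FORKO replicate 1 below WT replicate 1, the side on which that array also stood for Egr3. None of these 4 passed. All 4 had positive changes, but other untested list genes ran differently with no dim filter. Sik1 changed by 0.21, Arc by -0.01, and Klf1 by -0.56 with every FORKO array below every WT array. Of all probe sets, 8.4% had every FORKO array above every WT array.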
